A study of Gallus gallus with 3 samples.

Results

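The anterior and middle genes of the HOXA and HOXD clusters were examined in the spinal neural tube of the chicken embryo. They were taken by symbol, as HOXA2, HOXA3, HOXA4, HOXA5, HOXA6, HOXA7, HOXD3 and HOXD4. Of these 8 symbols 7 were matched, out of 15916 genes in the table, and HOXA3 was not matched by symbol. Transcripts of 5 of the 7 genes were present in every library. All 5 had their highest level in the 1 library of the later stage, as did 43.2% of 10121 genes that could be compared library by library. HOXD4 had the largest difference, from 93.3 to 225 TPM. HOXA6 and HOXA7 had no read in any library.

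HOX genes encode homeodomain transcription factors that give cells their position along the head-to-tail axis. They lie in clusters, and genes of the same paralog group descend from 1 ancestral gene and sit at matching places in different clusters. Genes at the anterior end of a cluster are activated earlier and reach further toward the head than those at the posterior end, and retinoic acid, FGF signals and CDX proteins control their onset in the neural tube. In the spinal cord, HOX proteins act with TALE cofactors to set the columns and pools of motor neurons.

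Polyadenylated RNA was sequenced from wild-type White Leghorn embryos at Hamburger-Hamilton stage HH14 (2 libraries) and stage HH19 (1 library). All 3 libraries held the spinal neural tube, the epithelium that forms the spinal cord, from brachial level back into the thoracic region, pooled from about 25 embryos each. Neighbouring mesoderm, endoderm, notochord and surface ectoderm had been dissected away by hand, in part after trypsin. Nothing in the labels ties the pools to separate egg batches, and the HH19 sample is labelled with the dissection steps of HH14 embryos.

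Levels are in TPM, a share of all transcripts corrected for transcript length. The authors' table holds 1 column for both HH14 libraries and 1 for HH19. The low values of both columns were steps of whole reads, with 1 read added per gene, and those at HH14 were averages over a pair of libraries. Read numbers for each of the 3 libraries were recovered in this way for 14914 genes (93.7%), among them all 7 HOX genes described here. Abundant genes were recovered less often. Of 1493 genes with a mean of at least 100 TPM, the class of HOXA2, HOXA4 and HOXD4, 704 were recovered. Shares of recovered genes given below therefore leave out many genes as abundant as these 3. The HH14 libraries are called A and B, because the steps do not tell which is replicate 1 and which is replicate 2. The recovered reads came to 13617258 in library A, 16593077 in library B and 14720335 in the HH19 library. The 5 expressed genes had between 552 and 9267 reads in a library. For 2 of them, HOXA5 and HOXD3, the combination also met a stricter limit of 0.01 combinations by chance. For HOXA2, HOXA4 and HOXD4 the number of combinations by chance was 0.053, 0.057 and 0.087, so their values in A and B are less certain than their column values. Intervals given below are 95% intervals for counting error only, and reads without molecular identifiers are not independent molecules.

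The libraries also differed in markers of other cells. The summed level of 6 neuron markers was 283 TPM in library A, 576 TPM in library B and 1173 TPM at HH19, and 5 of the 6 were at least 2-fold higher at HH19 than in the HH14 column. The sum and 4 of the 6 markers stood in the order of libraries that the 5 expressed HOX genes had. The exceptions were ELAVL4 (73.5 TPM in A, 63.6 in B and 144 at HH19) and DCX (37.6, 11.4 and 21.0 TPM). The part of neuron number in the HOX values was not tested. Of 7 lateral plate markers 2 were abundant enough to be compared and both were lower at HH19, and the summed level of all 7 was 12.8 TPM in A, 2.07 TPM in B and 1.49 TPM at HH19. Caudal progenitor and tail bud markers (10 matched, 7 compared, 2 lower) summed to 82.3, 55.7 and 53.9 TPM in A, B and HH19. A was highest in 6 of the 10. Without CDX4 the other 9 summed to 51.0, 53.3 and 53.9 TPM, so the sum was then not highest in A. Even so, A was highest in 5 of these 9. All 3 endoderm markers (summed 43.6, 7.94 and 11.6 TPM) and all 6 surface ectoderm markers (111, 73.2 and 53.7 TPM) were highest in A. Of 5 neural crest markers (113, 83.9 and 31.2 TPM) 3 were highest in A, while SOX10 was highest in B (18.7, 28.8 and 3.76 TPM) and ETS1 at HH19 (4.79, 7.03 and 12.9 TPM). Paraxial mesoderm markers (9 matched, 4 compared, 1 higher) summed to 4.36, 8.13 and 12.2 TPM. The higher one, UNCX, gave 0.107, 0.889 and 4.39 TPM of these sums. The part of these other cells in the HOX values was not tested. All 6 matched markers of the neural tube or of parts of it were abundant at both stages. Their sum went from 967 to 1514 TPM, with a median difference of 0.63. SOX2 went from 178 to 185 TPM and PAX6 from 125 to 166 TPM. NES had 366 and 667 TPM, and DBX1 (57.2 and 155 TPM) and DBX2 (76.4 and 165 TPM) were at least 2-fold higher at HH19. The part of this rise in the HOX values was not tested. The hindbrain marker FGF3 was at 0.130 TPM at HH14 and 0.108 TPM at HH19. In bulk tissue, fewer cells of a type and less RNA per cell cannot be told apart.

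**Figure D1:**
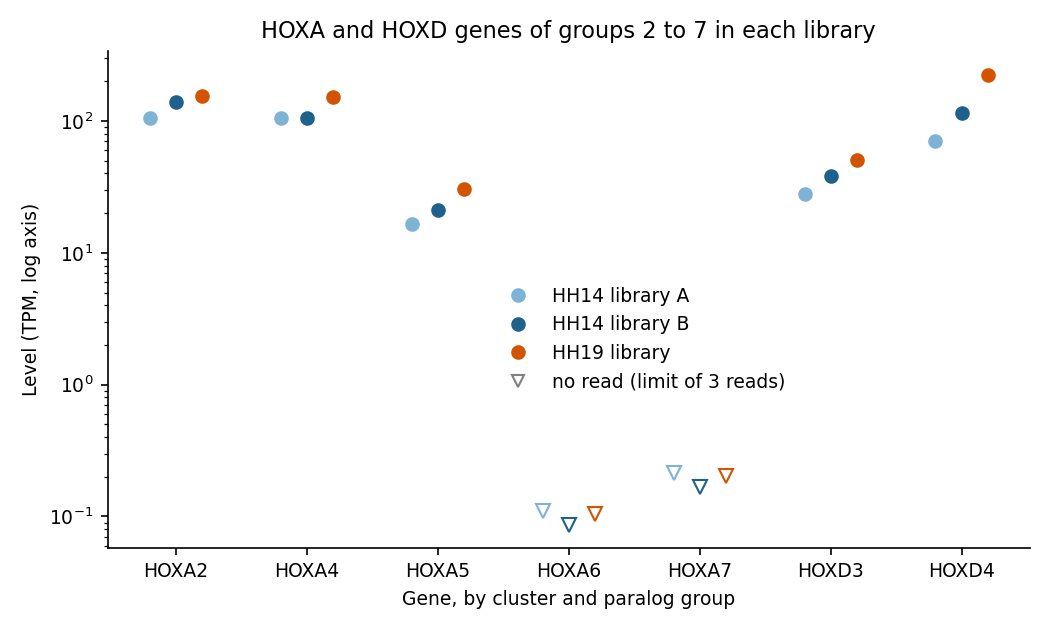
Level in TPM (log axis) of each HOXA and HOXD gene of groups 2 to 7 in HH14 library A, HH14 library B and the HH19 library; open triangles mark the level that 3 reads would give for genes with no read. HOXD4 goes from 70.9 and 116 TPM in the HH14 libraries to 225 TPM at HH19, the widest step of the 5 expressed genes.

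HOXA2 is the anterior HOX gene known for patterning the hindbrain and the neural crest of the branchial arches. Its level was 106 TPM in library A, 140 TPM in library B and 155 TPM at HH19. The HH19 library was the highest, but it lay close to library B, and the HH14 libraries themselves were 1.32-fold apart (interval 1.27 to 1.38). HH19 was 1.46-fold above A (interval 1.39 to 1.53) and 1.10-fold above B (interval 1.06 to 1.14). Against the HH14 column of 123 TPM the difference was 0.33 on the log2(TPM + 1) scale. This step was close to the spread of the HH14 libraries, whose mean was 123 ± 24.3 TPM (SD, n = 2).

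HOXD3, which in mice shapes the upper cervical vertebrae, had 28.0 TPM in library A, 38.6 TPM in library B and 50.6 TPM at HH19. The 3 libraries did not overlap within counting error, and B lay about midway between A and HH19. HH19 was 1.81-fold above A (interval 1.68 to 1.95) and 1.31-fold above B (interval 1.23 to 1.40), while B was 1.38-fold above A (interval 1.28 to 1.49). The difference from the HH14 column of 33.3 TPM was 0.59 on the log2(TPM + 1) scale.

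HOXA4 and HOXD4 share paralog group 4. HOXA4, which acts on the cervical skeleton in mice, had 106 TPM in library A, 106 TPM in library B and 153 TPM at HH19. It was the member with nearly equal HH14 libraries (1.00-fold, interval 0.960 to 1.05), so its HH19 value stood clear of both by about the same factor. HH19 was 1.45-fold above A (interval 1.39 to 1.51) and 1.44-fold above B, and the difference from the HH14 column was 0.53 on the log2(TPM + 1) scale.

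HOXD4 has in mouse and fish a neural enhancer that responds to retinoic acid and marks the hindbrain and spinal cord. It had 70.9 TPM in library A, 116 TPM in library B and 225 TPM at HH19. The HH19 value lay far above both HH14 libraries, which in turn were 1.63-fold apart (interval 1.56 to 1.71). HH19 was 3.17-fold above A (interval 3.04 to 3.31) and 1.95-fold above B (interval 1.88 to 2.01). Against the HH14 column the fold was 2.41 and the difference 1.26 on the log2(TPM + 1) scale. HOXD4 moved from rank 1606 to rank 609 of all genes by level.

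HOXA5, the last of the expressed members in cluster order, takes part in lung development and in the motor neurons of the phrenic column in mice. It had 16.5 TPM in library A, 21.3 TPM in library B and 30.3 TPM at HH19. It was the lowest of the 5 in every library and kept the same order of libraries. HH19 was 1.83-fold above A (interval 1.65 to 2.04) and 1.42-fold above B (interval 1.30 to 1.55), and B was 1.29-fold above A (interval 1.16 to 1.44). The difference from the HH14 column of 18.9 TPM was 0.65 on the log2(TPM + 1) scale.

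HOXA6 and HOXA7 belong to groups that act at brachial and thoracic levels of the spinal cord. HOXA6 was listed at 0.0326 TPM at HH14 and 0.0348 TPM at HH19, the value of the added read alone. With no read counted, a level of up to 0.110 TPM in library A, 0.0858 TPM in library B and 0.104 TPM at HH19 (3 reads) is not detectable. HOXA7 was listed at 0.0632 and 0.0674 TPM, again with no read, and its limits were 0.213, 0.166 and 0.202 TPM. These limits hold for reads assigned to the gene models of the authors' annotation. The RefSeq annotation of assembly GRCg7b gives HOX1 and HOX1B as older names of HOXA6, and the genes with these symbols in the table also had no read in any library. By contrast HOXB6 and HOXB7, their paralogs in the HOXB cluster, had 137 and 239 TPM at HH14 and 235 and 253 TPM at HH19.

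Taken by the size of the difference, 1 of the 5 expressed members was at least 2-fold higher at HH19 on the log2(TPM + 1) scale, namely HOXD4, and none was lower. Among the 11097 genes with a mean of at least 1 TPM, 3.93% were at least 2-fold higher and 1.38% at least 2-fold lower. The median difference was 0.59 for the members and 0.052 for all these genes. All 5 members lay above the HH14 column, as did 55.6% of all genes compared, and all 5 lay above both HH14 libraries, as did 43.2% of the 10121 recovered genes. None lay below both HH14 libraries, as 22.9% of recovered genes did. In all 5 the order was A below B below HH19, which 29.2% of recovered genes had. Library B exceeded A in all 5 (45.7% of recovered genes), and in 4 of them beyond counting error. None of the 5 was 2-fold apart between the HH14 libraries, as 6.90% of recovered genes were. Against library A alone 1 member was at least 2-fold higher (8.79% of recovered genes), and against library B alone none was (3.33%).

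The median difference depended on which HH14 library was taken. It was 0.83 against library A and 0.49 against library B, where all recovered genes had medians of 0.05 and 0.14. Between the HH14 libraries, B minus A, it was 0.40 for the members and -0.06 for all recovered genes. The step between the 2 HH14 libraries was thus of a similar size to the step from B to HH19.

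**Figure D2:**
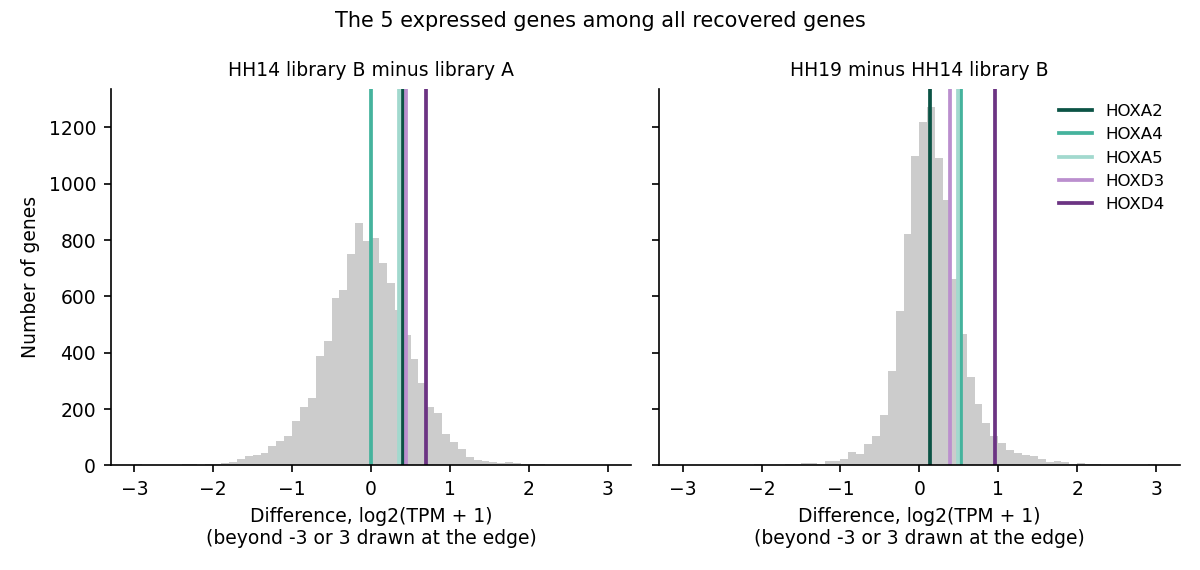
Histograms of the difference on the log2(TPM + 1) scale over all 10121 recovered genes with a mean of at least 1 TPM, for HH14 library B minus library A (left) and HH19 minus library B (right), with coloured lines at the 5 expressed members. The median of the members is 0.40 on the left and 0.49 on the right, while the medians of all genes are -0.06 and 0.14.

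A test with the 3 recovered libraries was possible with limma, with 1 residual degree of freedom and the assumption that the single HH19 library varies like the HH14 pair. HOXD4 passed, with a log2(TPM + 1) difference of 1.30 (SE 0.33) and a limma adjusted p of 0.0385 over 10121 genes. It was among the 0.622% of recovered genes that limma called higher, and none of the 5 was among the 0.119% called lower. The call was lost at a pseudocount of 0.1 (limma adjusted p 0.065), at a pseudocount of 5 (0.21) and without the filter on low genes (0.52). HOXA2, HOXA4, HOXA5 and HOXD3 had limma differences of 0.34 (SE 0.34), 0.53 (SE 0.33), 0.66 (SE 0.44) and 0.61 (SE 0.41), and their limma adjusted p was at least 0.990. The single HH19 library adds no spread to this fit, so the only spread measured was that between A and B, which may be technical. limma also drew the variance of each gene toward that of other genes with like read numbers. Between A and B the SD on the log2(TPM + 1) scale was 0.00 for HOXA4 and 0.49 for HOXD4, yet both had an SE of 0.33. The SE thus rests largely on other genes.

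The order of the levels at HH19 differed from that in the HH14 column, through HOXD4, but it also differed between the HH14 libraries. HOXD4 was below HOXA4 in library A (70.9 against 106 TPM). In library B it was above HOXA4, at 116 TPM (interval 113 to 119) against 106 TPM (interval 103 to 109). In the HH14 column HOXA2 (123 TPM), HOXA4 (106 TPM) and HOXD4 (93.3 TPM) came first, and the values of these 3 genes in libraries A and B overlapped. HOXD3 (33.3 TPM) and HOXA5 (18.9 TPM) followed, each apart from its neighbours in both libraries. At HH19 HOXD4 was highest at 225 TPM, with a counting interval of 220 to 230 TPM. HOXA2 (155 TPM, interval 150 to 159) and HOXA4 (153 TPM, interval 149 to 157) did not differ beyond counting error, and HOXD3 (50.6 TPM) and HOXA5 (30.3 TPM) again came last.

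Together the 5 genes summed to 327 TPM in library A, 422 TPM in library B and 613 TPM at HH19. HOXD4 made up 21.7% of that sum in A, 27.4% in B and 36.7% at HH19. HOXA2 gave 32.4%, 33.3% and 25.2%, and HOXA4 gave 32.3%, 25.1% and 24.9%. The shares of HOXD3 (8.56%, 9.15% and 8.25%) and HOXA5 (5.05%, 5.05% and 4.94%) were nearly level. Thus HOXD4 alone gained share in both steps.

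**Figure D3:**
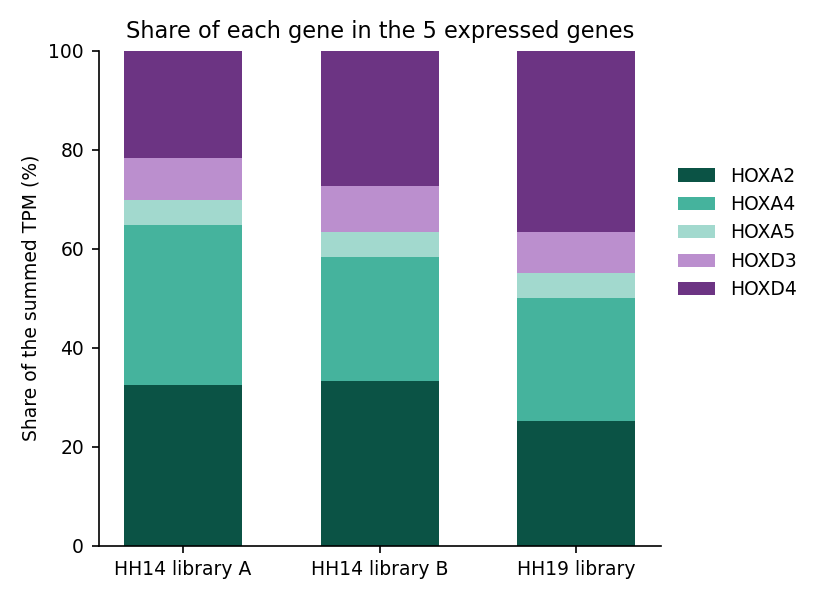
Stacked bars of the share (%) of each expressed gene in the summed TPM of the 5 expressed HOXA and HOXD genes, for HH14 library A, HH14 library B and the HH19 library. HOXD4 takes 21.7%, 27.4% and 36.7%, while HOXD3 and HOXA5 keep nearly the same share.

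Ratios within a library do not depend on its total. The neighbours HOXD4 and HOXD3 stood at 2.53 to 1 in library A, 3.00 to 1 in library B and 4.45 to 1 at HH19. HOXD4 was below its paralog HOXA4 in A (ratio 0.671), slightly above it in B (1.09) and further above it at HH19 (1.47). HOXD3 and HOXA5, of different clusters, stood at 1.70 in A, 1.81 in B and 1.67 at HH19. HOXA2 and HOXA4 stood at 1.00 in A, 1.32 in B and 1.01 at HH19.

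Reads of neighbouring genes may be shared. In the RefSeq annotation of GRCg7b the span of HOXD3 overlaps HOXD4 and the microRNA gene MIR10B, and the span of HOXA3 overlaps HOXA4, HOXA5 and HOXA6. How the authors assigned reads of overlapping genes, and whether strand was used, is not given in the sources used here. MIR10B, named after its values were seen, had 31.3 TPM in library A, 38.5 TPM in library B and 78.3 TPM at HH19, from 63, 100 and 168 reads. It was thus 2.25-fold above the HH14 column, close to the 2.41-fold of HOXD4. Reads of its own precursor and of overlapping HOXD transcripts cannot be told apart.

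The HOXB genes gave the nearest comparison. HOXB4, the paralog of HOXA4 and HOXD4, had 312 TPM in library A, 480 TPM in library B and 805 TPM at HH19. The ratio of HOXD4 to HOXB4 went up, from 0.227 in A and 0.241 in B to 0.280 at HH19, while that of HOXA4 to HOXB4 went down, from 0.338 and 0.221 to 0.190. Of the 6 HOXB genes of groups 1 to 7, 2 reached the 2-fold threshold and the median difference of all 6 was 0.76, beside 1 of 5 and 0.59 for the HOXA and HOXD members. Against library B alone 0 of the 6 reached it, as 0 of the 5 did. The order A below B below HH19 was found in 5 of the 6 HOXB genes, and 5 of the 6 lay above both HH14 libraries. The order of libraries was thus not particular to the HOXA and HOXD members. The members made up 23.5% of the summed TPM of all expressed HOX genes of groups 1 to 7 in A, 23.1% in B and 23.0% at HH19.

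The 3 posterior genes with enough reads went the other way from the members, with A highest and HH19 lowest. HOXA9 had 30.4 TPM in A, 7.83 TPM in B and 0.0488 TPM at HH19, and HOXD8 had 11.1, 2.71 and 1.52 TPM. HOXB9 had 746, 244 and 45.9 TPM. No test compared the groups of genes.

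**Figure D4:**
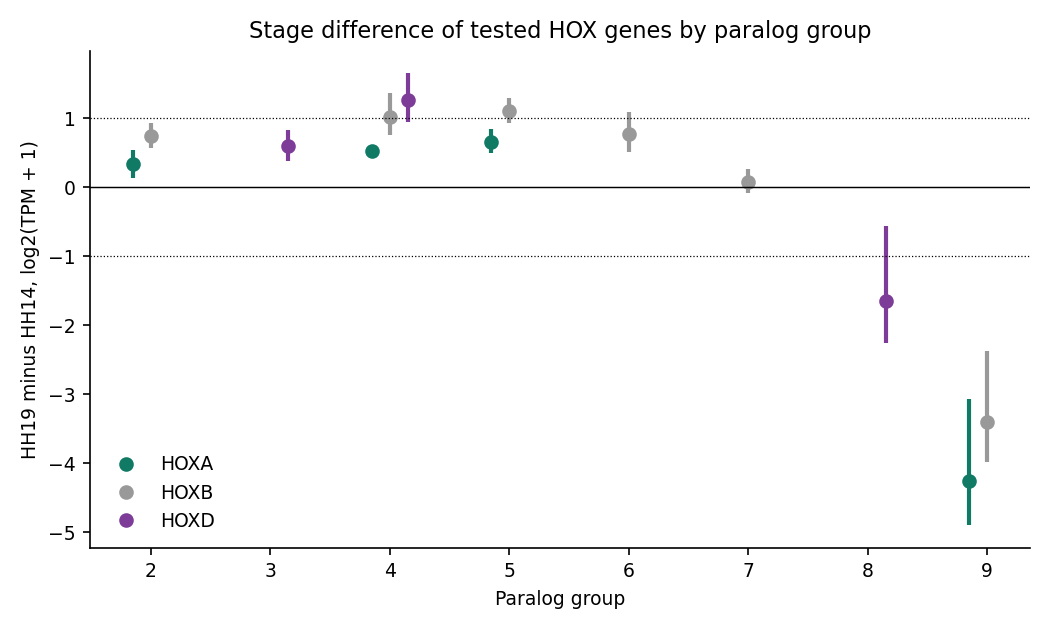
Difference between HH19 and HH14 on the log2(TPM + 1) scale against paralog group from group 2 on, coloured by cluster; points use the authors' HH14 column, and bars run from the difference against one HH14 library to that against the other. The HOXA and HOXD genes of groups 2 to 5 lie between 0.33 and 1.26, and the posterior genes lie at -1.65 and below.

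Genes most like HOXD4 in their 2 column values, among 13166 genes with a symbol, were TAGLN3 (105 and 229 TPM), MIR1652 (102 and 203 TPM) and OLFM1 (88.2 and 195 TPM). Their distances on the log2(TPM + 1) scale were 0.174, 0.193 and 0.222. For HOXA2 they were IGF2BP1 (122 and 158 TPM, distance 0.035), FAM103A1 (123 and 160 TPM, 0.051) and CSNK2A2 (127 and 149 TPM, 0.065). Over 2 columns such likeness says only that both levels are close.

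Genes known to act with or on HOX genes were read by the same rule of size. Of all genes compared, 3.93% were at least 2-fold higher and 1.38% lower, and the median difference was 0.052. Of 7 TALE cofactors none was at least 2-fold higher or lower and the median difference was 0.40. The most abundant, MEIS1, went from 194 to 237 TPM, and MEIS2 from 111 to 149 TPM. Of 14 genes of retinoic acid synthesis, binding and reception 3 were higher and none lower, with a median of 0.68. Against library B alone 1 of the 12 recovered genes was 2-fold higher. At a pseudocount of 0.1, with median-ratio scaling and after quantile normalization 1 gene was lower. The 3 higher genes were the receptor RXRA (12.9 and 37.5 TPM) and the binding proteins CRABP1 (456 and 1115 TPM) and CRABP2 (605 and 1273 TPM). Among FGF, GDF and CDX genes 2 of 15 were higher and 2 lower, and the median was -0.06. Against library B alone 1 of the 13 recovered genes was 2-fold higher and 1 lower. CDX4, an activator of posterior HOX genes, had 31.2 TPM in library A, 2.41 TPM in library B and 0.0707 TPM at HH19, the order of libraries opposite to that of the members. The ligand FGF18 went from 0.913 to 6.32 TPM, from only 4 reads in A, 7 in B and 40 at HH19. Of the receptors, FGFR1 had 170 and 155 TPM and FGFR3 54.2 and 135 TPM. At a pseudocount of 5, and at a mean of at least 5 TPM, 1 gene of this list was higher and 1 lower. At a pseudocount of 0.1, 2 were higher and 3 lower.

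Chromatin regulators of the Polycomb and trithorax groups, which hold HOX genes silent or active, were nearly level. Of 30 such genes 2 were at least 2-fold higher, beside 3.93% of all genes compared. None was lower, beside 1.38%, and the median was 0.03. Both calls were lost at a pseudocount of 5 and after quantile normalization, and 0 of the 27 recovered genes were 2-fold above library B. SCMH1, the higher gene with the larger difference, had 13.3 and 29.6 TPM, while the abundant RBBP4 had 740 and 748 TPM and WDR5 had 212 and 208 TPM. Of 11 genes listed for motor neurons and their columns and pools, 3 were higher, none was lower, and the median was 0.83. Whether HOX proteins act on these genes in this tissue was not tested. Among them ISL1, which marks newborn motor neurons, went from 2.25 to 12.9 TPM, and LHX1 from 4.65 to 21.0 TPM. In A and B ISL1 had 0.829 and 3.68 TPM and LHX1 had 1.98 and 7.31 TPM. This was the order of libraries that the summed neuron markers had, and the part of neuron number in these values was not tested. The most abundant of the list, NR2F2 and NR2F1, had 78.3 and 140 TPM and 66.2 and 110 TPM. In A and B NR2F2 had 56.3 and 100 TPM, and NR2F1 had 41.9 and 90.4 TPM.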

How the data were processed

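RNA-seq of 2 HH14 libraries and 1 HH19 library was analysed, grouped by the stage in the labels. The deposited values are TPM per Ensembl gene, per the file headers. The submitters' processing notes name the build galGal4 and the tools TopHat2, DESeq2, SAMtools and FastQC. What each tool did, its version, the counting tool, the annotation and the merging of the HH14 pair are not given in those sources. The columns summed to 957153.8 TPM (HH14) and 946462.2 TPM (HH19) and were compared as deposited.

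Genes with a mean of at least 1 TPM (the HH14 column weighted 2 to 1) were described by the difference of log2(TPM + 1), with a threshold of 1. No test could be run on the 2 columns. Whole reads were recovered as follows, after the data had been seen. The ratio of the columns in 1398 genes without a read was 1.066, and 56.16% of what 1 read adds to the HH14 column came from library A, against 43.84% from B. For lengths of 50 to 10000 bases and HH14 libraries at most 16-fold apart, a combination was kept where at most 0.1 were expected by chance. Of genes with a mean of at least 1 TPM, 10121 (91.2%) were recovered, and with a shifted share of A in 3 runs 462 on average (4.56% of that number). At a mean of at least 100 TPM, 704 of 1493 genes were recovered. limma on log2(TPM + 1), with a variance trend on read number, used these genes, two-sided, with Benjamini-Hochberg adjustment. It replaced the limma fit that had been foreseen for separate columns. The recovery and the limma steps were tested on simulated data, where limma also called some unchanged genes. A limma call alone is therefore not proof of a stage difference. Fold intervals are exact binomial intervals, and level intervals exact Poisson intervals.

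The HOX genes and all lists were chosen with earlier results of these data known. All rule members were named, and HOXB and posterior HOX genes could be named as neighbours. In other lists the 2 largest differences past the threshold and the 2 most abundant genes were named, and for HOXD4 and HOXA2 the 3 nearest genes in the 2 columns. Some named genes are not reported here. RefSeq GRCg7b served for names and neighbours only. As alternatives, quantile normalization, median-ratio scaling, no filter, a mean of at least 5 TPM and pseudocounts of 0.1 and 5 were tried. Each HH14 library alone and the sum of rows with the same symbol were also used. The software was limma 3.58.1 in R 4.3.3, and Python 3.11.15 with scipy 1.17.1, pandas 2.3.3, numpy 2.4.6 and matplotlib 3.10.9.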

Additional observations from a re-analysis of the deposited data

How the results depend on the processing

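Over 35 combinations of gene and alternative, the differences of the 5 expressed members ran from 0.14 to 1.65 on the log2(TPM + 1) scale. All kept their sign, but for many of them this was fixed in advance. A pseudocount of 0.1 or 5 cannot change a sign, and summing rows per symbol left these genes as they were, with 1 row each. Nor can library A, the lower HH14 library, where HH19 lies above the average of both. Median-ratio scaling, with a factor of 1.04, could not change a sign either. The smallest fold of an expressed member over the HH14 column was 1.25 (HOXA2). Quantile normalization and library B alone could have changed a sign. HOXD4 ranged from 0.95 to 1.65, HOXA2 from 0.14 to 0.54, HOXA4 from 0.47 to 0.53, HOXA5 from 0.49 to 0.84 and HOXD3 from 0.38 to 0.83. The count of members at least 2-fold higher was 1, and 0 against HH14 library B alone. The limma adjusted p of HOXD4 was 0.039; it was 0.017 with the variance trend on mean level, 0.065 at a pseudocount of 0.1, 0.21 at a pseudocount of 5 and 0.52 without the filter, where limma called 0 of 14914 genes. limma called 63 genes higher and 12 lower, 49 and 19 at a pseudocount of 0.1, 15 and 2 at a pseudocount of 5, and 106 and 23 with the trend on mean level. By size, 436 genes were higher and 153 lower; at a pseudocount of 0.1 the lower genes were 279, at a pseudocount of 5 there were 149 and 46, and at a mean of at least 5 TPM 261 and 85. The higher genes were 74.0% of those past the threshold and 58.2% after quantile normalization. Of the genes on the 5 lists of HOX cofactors, regulators and presumed targets 10 were higher and 2 lower. The lower ones were 4 at a pseudocount of 0.1, 1 at a pseudocount of 5 and 1 at a mean of at least 5 TPM. The cause of these changes was not tested. No paired analysis was possible because the HH14 libraries share a column and HH19 has 1 library. With that 1 library, no spread at HH19 is known.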
